A study of Mus musculus with 16 samples.

Results

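The classical pathway of complement is described here through 9 genes, chosen by symbol: the C1q chain genes C1qa, C1qb and C1qc, the C1 protease genes C1ra and C1s1, the substrate genes C4b and C2, the related protease gene Masp1, and Serping1, which encodes C1 inhibitor. All 9 were present in the deposited matrix, which holds 20525 genes, and all 9 passed the filter on low values that left 18035 genes for testing. RNA was sequenced from kidneys of mice with and without rhabdomyolysis, the breakdown of skeletal muscle, whose released heme proteins can injure kidney tubules. The design asked how the kidney transcriptome in this injury depends on complement C3. It held 16 libraries, 4 in each of 4 groups: C3-/- mice given glycerol, WT mice given glycerol, C3-/- mice given PBS and WT mice given PBS. All mice were 8 weeks old, with the strain background written as C56BL/6. Glycerol at 50% was injected into a thigh muscle at 7.5 ml/kg, and RNA came from frozen kidney sections 30 µm thick. The sources used here give no sex, no time from injection to sampling and no allele behind the C3-/- label. The labels do not say that the libraries of a group came from separate mice, so the p-values cover only the variation among these libraries, part of which may be technical.

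C1q recognises antibody bound to antigen, and also pentraxins and dying cells. It carries the proteases C1r and C1s: C1r activates C1s, which cleaves C4 and then C2 to form the enzyme that cleaves C3. In tissues C1q is made mainly by macrophages and dendritic cells, whereas C1r, C1s, C4 and C1 inhibitor are made by hepatocytes and also by fibroblasts and epithelial cells, renal tubule cells among them. C1 inhibitor, a serpin, inactivates C1r, C1s and the MASP proteases, and outside complement it inhibits plasma kallikrein.

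The libraries differed in several ways that cross the groups. Sheet numbers in the sample descriptions ran once through 13 libraries (list 1) and were repeated in the other 3 (list 2), which were C3-/- glycerol replicates 1 and 3 and WT glycerol replicate 4. All PBS libraries were in list 1. Transcripts of the Y-linked gene Ddx3y reached a normalized count of 100 in 2 of 4 C3-/- glycerol, 4 of 4 WT glycerol, 1 of 4 C3-/- PBS and 4 of 4 WT PBS libraries. The total per library lay between 25.81 M and 38.39 M normalized counts, and 3374 genes were listed at 0 in WT glycerol replicate 4 against 190 to 982 in the others. C3, the targeted gene, showed no loss in libraries labelled C3-/-. It had 8008.0, 1457.3, 5495.3 and 1587.2 in C3-/- glycerol libraries and 3728.7, 1711.7, 2782.8 and 4717.5 in WT glycerol libraries. After PBS it had 819.4, 1139.7, 860.0 and 563.8 in C3-/- libraries and 334.9, 361.4, 470.5 and 425.0 in WT libraries, so all C3-/- values lay above all WT values. A count over the whole gene checks nothing about a deletion whose position is unknown, and each genotype difference below rests on the label alone. As a check of tissue, the proximal tubule list summed to 179400 to 265700 in C3-/- PBS libraries and 194400 to 230100 in WT PBS libraries.

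The 3 C1q chain genes lie side by side on the minus strand of chromosome 4 (GRCm38): C1qb at 136880129 to 136886187, C1qc at 136889804 to 136893065 and C1qa at 136895917 to 136898803, with gaps of 3.62 and 2.85 kb between them. C1ra, on the plus strand of chromosome 6 at 124512405 to 124523443, and C1s1, on the minus strand at 124530345 to 124542359, end toward each other 6.9 kb apart. C4b (34728380 to 34743882) and C2 (34862604 to 34898265) lie 119 kb apart on chromosome 17, and C3 lies 22.5 Mb from C4b. Masp1 is on chromosome 16 (23449417 to 23520815) and Serping1 on chromosome 2 (84765387 to 84775444). RefSeq promoter windows, 250 bases before to 50 after the transcript start on build GRCm38.p6, matched 4 of the 9 genes. They are shown because the C1q chain genes are neighbours and C1ra and C1s1 have the most similar profiles among the members. The responses of the chain genes were not tested against each other, and C1qa had no window. Each is written 5′ to 3′ along the gene's strand, with motif matches in capitals: C1qb is chr4:136886151-136886450 (minus), C1qc is chr4:136892865-136893164 (minus), C1ra is chr6:124512371-124512670 (plus) and C1s1 is chr6:124542310-124542609 (minus).
C1qb: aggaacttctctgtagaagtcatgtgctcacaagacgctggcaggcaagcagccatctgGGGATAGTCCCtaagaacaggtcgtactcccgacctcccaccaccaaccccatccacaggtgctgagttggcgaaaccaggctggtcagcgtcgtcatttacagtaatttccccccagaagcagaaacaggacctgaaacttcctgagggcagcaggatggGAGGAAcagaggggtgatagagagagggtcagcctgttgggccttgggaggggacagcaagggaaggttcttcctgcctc
C1qc: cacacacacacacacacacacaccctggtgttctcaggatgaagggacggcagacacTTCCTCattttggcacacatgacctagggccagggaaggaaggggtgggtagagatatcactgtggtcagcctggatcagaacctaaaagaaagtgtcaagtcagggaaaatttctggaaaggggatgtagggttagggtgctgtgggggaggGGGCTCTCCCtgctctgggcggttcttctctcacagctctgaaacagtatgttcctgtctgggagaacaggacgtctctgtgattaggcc
C1ra: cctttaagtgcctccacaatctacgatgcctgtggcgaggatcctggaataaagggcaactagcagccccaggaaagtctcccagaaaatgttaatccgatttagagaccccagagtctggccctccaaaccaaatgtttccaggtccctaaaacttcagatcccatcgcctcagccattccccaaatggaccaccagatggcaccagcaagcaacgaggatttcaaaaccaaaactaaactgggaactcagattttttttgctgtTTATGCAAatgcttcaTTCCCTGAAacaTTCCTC
C1s1: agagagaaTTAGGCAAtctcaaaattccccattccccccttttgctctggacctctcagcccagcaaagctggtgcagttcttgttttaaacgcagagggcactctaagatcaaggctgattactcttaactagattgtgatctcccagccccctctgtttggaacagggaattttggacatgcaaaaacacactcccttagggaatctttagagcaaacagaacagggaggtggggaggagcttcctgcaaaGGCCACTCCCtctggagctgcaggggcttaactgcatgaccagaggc
Both strands were searched for 7 motif strings. The myeloid PU.1 string GAGGAA, present in 28.3% of 32851 promoter windows, matched C1qb at -30 and, as TTCCTC on the other strand, C1qc at -193 and C1ra at 45, counted from the transcript start. The NF-kB string, GGGA and CC separated by 4 bases of any kind and present in 20.7% of windows, matched C1qb at -191 and -190, 2 overlapping matches on opposite strands, as well as C1qc at -40 and C1s1 at 4. The C/EBP string TTGCNNAA (10.8% of windows) matched C1ra at 17 and C1s1 at -242. The GAS string TTCNNNGAA, bound by STAT factors (8.3% of windows), matched C1ra at 33. The interferon-response string ISRE, GAAA repeated after 2 bases of any kind (3.44%), the AP-1 string TGANTCA (7.81%) and the TATA string TATAAA (13.6%) had no match in these 4 windows. C1s1 has a second window, from another transcript start (chr6:124542272-124542571), which is not shown. That window had no C/EBP match, and its NF-kB match lay at -35. A match describes the letters of the window and does not show binding.

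The 3 C1q chain genes had their highest values in glycerol libraries, C1qb most clearly. C1qa, the A chain gene, had normalized counts of 627.9, 489.5, 230.3 and 398.2 in C3-/- glycerol libraries (replicates 1 to 4, as in each list below) and 617.8, 650.3, 540.4 and 441.6 in WT glycerol libraries. After PBS it had 301.9, 244.6, 287.9 and 243.3 in C3-/- libraries and 401.1, 412.3, 415.1 and 350.9 in WT libraries. All WT glycerol values lay above all WT PBS values, and all C3-/- PBS values below all WT PBS values. The C3-/- glycerol group spanned both, since its replicate 3, a list 2 library, was the lowest of all 16.

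C1qb, the B chain gene, had 1393.5, 554.3, 453.4 and 396.2 in C3-/- glycerol libraries and 743.3, 833.5, 669.6 and 1068.1 in WT glycerol libraries. After PBS it had 318.8, 322.1, 331.8 and 304.0 in C3-/- libraries and 346.4, 376.1, 391.2 and 368.8 in WT libraries. Every glycerol value exceeded every PBS value, and the highest value of each glycerol group came from list 2. C1qc, the C chain gene, had 670.0, 436.3, 236.9 and 305.5 in C3-/- glycerol libraries and 478.6, 487.8, 428.0 and 366.2 in WT glycerol libraries. Its PBS values were 252.8, 275.7, 311.1 and 281.3 in C3-/- libraries and 296.5, 353.2, 379.6 and 339.0 in WT libraries. For C1qc the groups overlapped in all 4 pairwise comparisons.

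The chain genes did not keep a fixed ratio. C1qb over C1qa was 1.97 to 2.42 in the 3 list 2 libraries and 0.86 to 1.32 in the 13 list 1 libraries, with no overlap. Inside list 1 it was 1.0 to 1.13 in C3-/- glycerol, 1.2 to 1.28 in WT glycerol, 1.06 to 1.32 in C3-/- PBS and 0.86 to 1.05 in WT PBS libraries. C1qc over C1qa was 0.83 to 1.07 in list 2 and 0.74 to 1.16 in list 1, which overlapped. No stretch of 50 bases was shared between transcripts of the chain genes, so reads of that length or more without mismatches can be told apart.

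C1ra and C1s1, the genes of the C1 proteases, followed each other closely and were high in WT PBS libraries and, for C1ra, in list 2. C1ra had 580.0, 232.2, 416.0 and 249.5 in C3-/- glycerol libraries and 376.3, 272.7, 298.5 and 526.0 in WT glycerol libraries. Its PBS values were 299.7, 331.7, 314.3 and 264.1 in C3-/- libraries and 401.5, 478.4, 584.4 and 421.4 in WT libraries. The C3-/- PBS values were all below the WT PBS values, and the glycerol groups overlapped. C1s1 had 639.3, 326.9, 459.8 and 325.3 in C3-/- glycerol libraries and 443.0, 320.6, 398.4 and 413.7 in WT glycerol libraries. After PBS it had 367.7, 429.0, 429.8 and 346.9 in C3-/- libraries and 470.8, 631.0, 668.7 and 508.9 in WT libraries. WT PBS values thus lay above all values of WT glycerol and of C3-/- PBS. C1ra over C1s1 was 0.9 to 1.27 in list 2 and 0.71 to 0.87 in list 1. C1ra shared 48.0% of its 50-base stretches with its near copy C1rb, and C1s1 shared 21.8% with C1s2, so counts of both genes are uncertain to that extent. C1s1 also overlaps the antisense gene Gm16567, and the sources used here do not say whether reads were counted by strand.

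**Figure D1:**
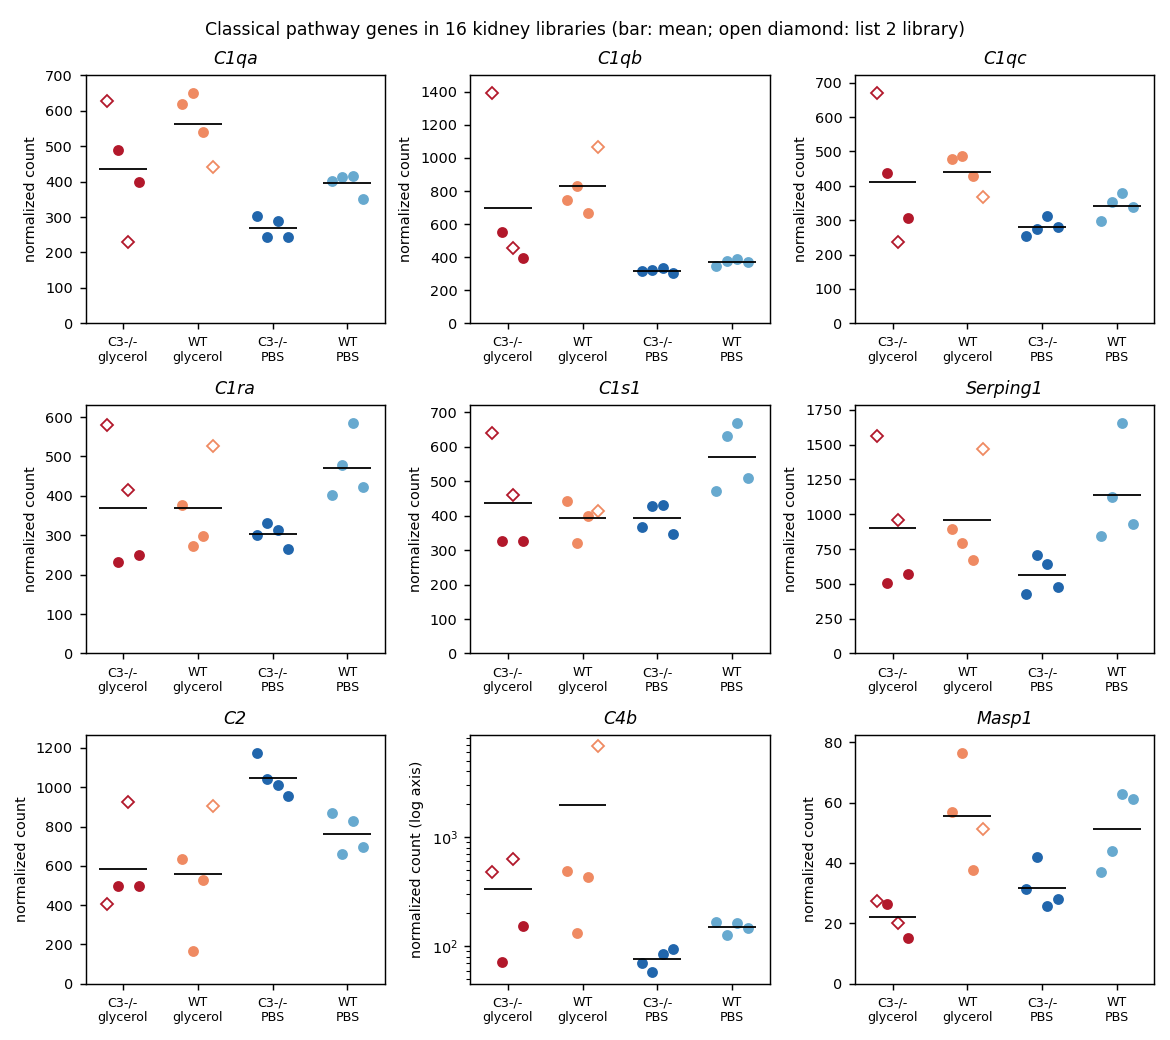
Normalized count (y axis, log scale for C4b) of each of the 9 genes in the 4 libraries of each group (x axis: C3-/- glycerol, WT glycerol, C3-/- PBS, WT PBS). Filled circles are list 1 libraries, open diamonds list 2 libraries and bars group means. C1qb lies higher in every glycerol library than in any PBS library, and the C4b value of 6768.4 in WT glycerol replicate 4 stands far above all others.

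C4b, whose protein C1s cleaves, varied most. It had 476.2, 71.2, 623.5 and 153.5 in C3-/- glycerol libraries and 489.9, 131.2, 432.9 and 6768.4 in WT glycerol libraries. Its PBS values were 71.0, 57.7, 85.3 and 94.4 in C3-/- libraries and 165.7, 126.4, 164.7 and 145.6 in WT libraries. The PBS groups did not overlap, whereas each glycerol group had at least 1 library inside the range of its own PBS group. The largest WT value came from list 2, as did the 2 largest C3-/- glycerol values. C4a, a near copy that shares 34.6% of the 50-base stretches of C4b, had 332.2 and 400.2 in the C3-/- and 416.2 in the WT list 2 libraries, against 4.2 to 37.0 in list 1. Within list 1, C4a therefore did not follow C4b, which reached 489.9 there.

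C2, the protease precursor cleaved by C1s after C4, was lower in most glycerol libraries. It had 405.1, 499.5, 926.5 and 499.2 in C3-/- glycerol libraries and 635.1, 167.6, 529.1 and 904.0 in WT glycerol libraries. After PBS it had 1172.5, 1040.9, 1011.2 and 956.7 in C3-/- libraries and 867.6, 658.2, 826.2 and 693.4 in WT libraries. All C3-/- PBS values exceeded all other values of this gene. C2 transcripts overlap Gm20547 and Zbtb12, and no 50-base stretch was shared with Cfb, the alternative pathway counterpart of C2.

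Masp1 encodes MASP-1 and, by other splicing, MASP-3, proteases of the lectin and alternative pathways, and was the lowest member. It had 27.3, 26.3, 20.0 and 15.2 in C3-/- glycerol libraries and 57.0, 76.3, 37.6 and 51.4 in WT glycerol libraries. After PBS it had 31.4, 42.1, 25.8 and 27.9 in C3-/- libraries and 36.9, 44.0, 63.0 and 61.1 in WT libraries. The glycerol genotypes did not overlap, and the PBS genotypes did. Gene-level values do not separate the splice forms, and Gm49514, Gm45338 and Rtp4 overlap Masp1 on the opposite strand.

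Serping1, the C1 inhibitor gene, had 1559.4, 502.7, 958.8 and 571.9 in C3-/- glycerol libraries and 891.1, 790.6, 671.5 and 1469.0 in WT glycerol libraries. Its PBS values were 424.8, 710.3, 645.6 and 478.3 in C3-/- libraries and 845.1, 1123.7, 1653.6 and 928.7 in WT libraries. The PBS genotypes were fully apart. The list 2 libraries were the highest of both glycerol groups, as for C1ra.

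Per kilobase of exon, C1qb, C1qa and Serping1 held the upper ranks among the members in 3 groups, and in C3-/- PBS libraries C2 (270 ± 23.7 per kb) lay between C1qb and C1qa. C1qb had 643 ± 430 normalized counts per kb in C3-/- glycerol, 762 ± 159 in WT glycerol, 293 ± 10.6 in C3-/- PBS and 341 ± 17.2 in WT PBS libraries (SD, n = 4 each). C1qa had 420 ± 160, 541 ± 89.3, 259 ± 28.8 and 380 ± 28.8 in the same groups, and the ranges of C1qb and C1qa overlapped in all 4 groups. Serping1 had the highest level in WT PBS libraries at 489 ± 156 per kb, within 1 SD of C1qa. C1ra (101 to 158 per kb over the 4 group means) and C1s1 (126 to 182 per kb) lay within 1 SD of each other in 3 groups, but not in C3-/- PBS libraries (101 ± 9.64 and 126 ± 13.6). C4b was second lowest in 3 groups, at 13.5 ± 2.83 per kb in C3-/- PBS and 26.4 ± 3.27 in WT PBS libraries, and Masp1 was lowest in all 4, at 2.26 to 5.65 per kb. The C1q chains are assembled in equal amounts in the protein. C1qc, at 145 to 228 per kb, had a lower level per kb than both partner chains in every group. Its annotated exons cover 1.93 kb over 2 transcripts, against 1.04 kb for C1qa and 1.09 kb for C1qb, each with 1 transcript. Before division C1qc averaged 412.2 in C3-/- glycerol, 440.2 in WT glycerol, 280.2 in C3-/- PBS and 342.1 in WT PBS libraries. In the same groups C1qa averaged 436.5, 562.5, 269.4 and 394.9, and C1qb 699.4, 828.6, 319.2 and 370.6. The undivided mean of C1qc was thus below both partners except in C3-/- PBS libraries, where it lay above C1qa. The size of the gap per kb depends on the exon length used.

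In WT kidney C1qb rose after glycerol. It averaged 828.6 ± 173.1 after glycerol and 370.6 ± 18.66 after PBS (SD, n = 4 each), which is 2.2-fold on the fitted scale (log2 fold change 1.14 ± 0.30 SE; limma adjusted p = 0.0114 over all tested genes). It was the 1 member of 9 called, where 25.9% of all tested genes were called (12.5% higher and 13.3% lower), so the count by itself does not set the members apart. The median log2 fold change was 0.11 over the members and -0.11 over all tested genes. The partner chains did not pass, with 0.50 ± 0.25 for C1qa (adjusted p = 0.152) and 0.36 ± 0.25 for C1qc (0.308).

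Members without overlap between WT glycerol and WT PBS were C1qa and C1qb on the higher side (18.2% of all tested genes) and C1s1 on the lower side (22.4%). For C1s1 the log2 fold change was -0.53 ± 0.22 (limma adjusted p = 0.0857) and for C1ra -0.39 ± 0.28 (0.325). C4b had 2.13 ± 0.90 (adjusted p = 0.0969), C2 -0.67 ± 0.39 (0.224), Serping1 -0.27 ± 0.35 (0.595) and Masp1 0.11 ± 0.30 (0.818). The authors' deposited table called C1qb, at 1.15 (adjusted p = 0.00318), and also C4b, at 3.68 (adjusted p = 0.000149), with 29% of its genes with an adjusted p called. The C4b value rests in part on WT glycerol replicate 4, and its fitted value was 1.01 within list 1.

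Within list 1, which keeps 3 WT glycerol and 4 WT PBS libraries, 7 of the 9 members were called. C1qa (0.61 ± 0.11), C1qb (1.01 ± 0.11), C1qc (0.44 ± 0.13) and C4b (1.01 ± 0.40) were higher after glycerol, where 26.8% of all tested genes were called higher. C1ra (-0.57 ± 0.14), C1s1 (-0.55 ± 0.14) and C2 (-0.98 ± 0.34) were lower, where 29.4% of genes were. The recognition chains and the C1 proteases thus moved in opposite directions there. Limma adjusted p-values of the 7 ran from 1.3e-05 for C1qb to 0.0455 for C4b, and Serping1 (-0.50, adjusted p = 0.08) and Masp1 (0.13) did not pass. With all libraries and covariates for list and Y-linked transcripts, C1qa (0.58), C1qb (0.97) and C4b (1.31) were called higher (23.1% of genes) and C1ra (-0.61) and C1s1 (-0.64) lower (26.2%). Fitting the WT groups alone called C1qb only (12.9% of genes higher, 13% lower).

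**Figure D2:**
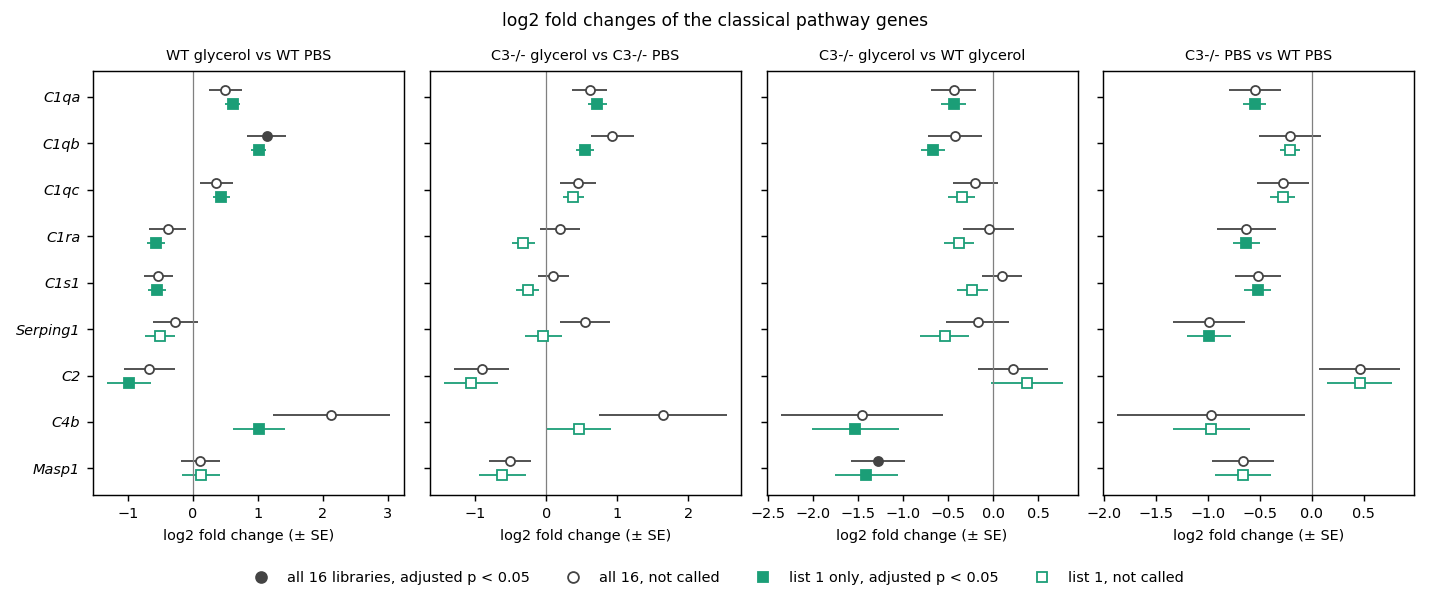
Log2 fold change with its SE (x axis) of each gene (y axis) in the comparisons of glycerol with PBS per genotype and of C3-/- with WT per treatment, from all 16 libraries (circles) and from the 13 list 1 libraries (squares); filled symbols passed an adjusted p of 0.05. In WT the chain genes lie right of 0 and C1ra, C1s1 and C2 left of it, and with all libraries C1qb in WT and Masp1 between glycerol genotypes are the filled circles.

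Glycerol in kidneys labelled C3-/- gave no called member. With limma 0 of 9 passed where 5.63% of all tested genes did (3.68% higher and 1.96% lower), 3 had an unadjusted p below 0.05, and the authors' deposited table called 2, with 15.9% of its genes with an adjusted p called. C1qb averaged 699.4 ± 467.3 after glycerol and 319.2 ± 11.53 after PBS (SD, n = 4 each), a log2 difference of 0.93 ± 0.30 (limma adjusted p = 0.0774). C1qb was also the only member without overlap on the higher side (9.53% of all tested genes), and C2, at -0.91 ± 0.39 (adjusted p = 0.17), the only one on the lower side (9.71%).

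C1qa had a log2 difference of 0.61 ± 0.25 (limma adjusted p = 0.149) and C1qc one of 0.45 ± 0.25 (0.265) in C3-/- glycerol against C3-/- PBS. The authors' deposited table had 0.69 for C1qa (adjusted p = 0.0402) and 1.13 for C1qb (0.00855). The remaining limma values were 1.64 ± 0.90 for C4b, 0.55 ± 0.35 for Serping1, 0.19 ± 0.28 for C1ra, 0.10 ± 0.22 for C1s1 and -0.51 ± 0.30 for Masp1. The median over the members was 0.45, and over all tested genes -0.06.

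Within list 1 this comparison keeps 2 C3-/- glycerol libraries. C1qa (0.72 ± 0.13, limma adjusted p = 0.00203) and C1qb (0.55 ± 0.13, 0.00826) were then called higher, where 12.5% of all tested genes were, and no member was called lower (10.8%). C1ra, C1s1 and Serping1 changed sign without list 2, to -0.32, -0.26 and -0.04, none of them called. The 3 genes had 416.0 to 580.0, 459.8 to 639.3 and 958.8 to 1559.4 in the 2 list 2 libraries of the C3-/- glycerol group, against 232.2 to 249.5, 325.3 to 326.9 and 502.7 to 571.9 in its 2 list 1 libraries. C4b had 476.2 and 623.5 in list 2 and 71.2 and 153.5 in list 1. With covariates for list and Y-linked transcripts, C1qa (0.91) and C1qb (0.77) were called higher (10.3% of genes) and C2 (-1.33) lower (8.47%), and a fit of the C3-/- groups alone called no member (1.18% of genes higher, 0.57% lower).

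After glycerol the genotypes differed in Masp1. It averaged 22.18 ± 5.683 in C3-/- and 55.59 ± 16.06 in WT glycerol libraries (SD, n = 4 each), a log2 difference of -1.28 ± 0.30, or 0.412-fold (limma adjusted p = 0.0112), and was lower in 4 of 4 C3-/- libraries than in any WT library. This was 1 of 9 members called, with 11.2% of all tested genes called (6.38% higher and 4.85% lower). No overlap on the lower side was seen for Masp1 alone (5.07% of all tested genes), and no member was free of overlap on the higher side (6.21%). The call ended when only the glycerol groups were fitted (adjusted p = 0.168, where 0.804% of genes were called higher and 0.839% lower).

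The other members did not pass between glycerol genotypes. C1qa was at -0.44 ± 0.25 (limma adjusted p = 0.295), C1qb at -0.42 ± 0.30 (0.423) and C4b at -1.46 ± 0.90 (0.348). C1qc, C1ra, C1s1, C2 and Serping1 lay between -0.20 and 0.22. The C4b value was -0.34 without WT glycerol replicate 4 and -2.23 without WT glycerol replicate 2, uncalled in both. The authors' deposited table called C4b at -2.55 (adjusted p = 0.0204) and Masp1 at -1.35 (0.000574), with 16.8% of its genes with an adjusted p called. Within list 1, C1qa (-0.44 ± 0.14), C1qb (-0.67 ± 0.13), C4b (-1.53 ± 0.48) and Masp1 (-1.41 ± 0.35) were called lower, where 14.7% of all tested genes were, and no member was called higher (15.7%). With covariates for list and Y-linked transcripts C1qa, C1qb, C4b and Masp1 were again called lower, between -0.65 and -1.98 (14.3% of genes lower, 19.3% higher). Without C3-/- glycerol replicate 1, C1qb was at -0.81 and called (adjusted p = 0.00647).

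After PBS most members were lower in kidneys labelled C3-/-, without passing the adjusted threshold. With limma 0 of 9 were called where 2.23% of all tested genes were (1.04% higher and 1.19% lower), and 5 had an unadjusted p below 0.05; the authors' deposited tables hold no such comparison. In 6 of the 9 every C3-/- value lay below every WT value, as in 13.1% of all tested genes. Serping1 averaged 564.7 ± 135.2 in C3-/- and 1138 ± 363.1 in WT PBS libraries (SD, n = 4 each), a log2 difference of -0.99 ± 0.35 (limma adjusted p = 0.213). C1ra was at -0.63 ± 0.28 (0.419), C1qa at -0.55 ± 0.25 (0.421) and C1s1 at -0.52 ± 0.22 (0.345).

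C4b, with 77.09 ± 16.12 in C3-/- and 150.6 ± 18.61 in WT PBS libraries, had a log2 difference of -0.97 ± 0.90 (limma adjusted p = 0.969), whose SE carries the spread of its glycerol libraries. C1qb, at -0.21 ± 0.30, was the sixth gene without overlap. C2, at 0.46 ± 0.39, was the 1 member wholly above the WT range (13.9% of all tested genes), and C1qc (-0.28) and Masp1 (-0.66) overlapped. The median was -0.55 over the members and 0.02 over all tested genes. A fit on the PBS libraries alone called 6 members: C1qa, C1ra, C1s1, C4b and Serping1 lower (13.4% of all tested genes) and C2 higher (12.9%), with limma adjusted p-values from 0.0039 to 0.016. Within list 1, C1qa, C1ra, C1s1 and Serping1 were called lower (10.2% of genes) and none higher (9.35%). Genotype and the presence of Y-linked transcripts were nearly aligned among PBS libraries. With a Y-linked covariate in the PBS fit, the genotype difference rested on the 1 C3-/- PBS library with Y-linked transcripts, set against all 4 WT libraries. It was -0.69 for C1qa, -0.82 for C1ra, -0.70 for C1s1 and -1.20 for Serping1. With 1 such library this fit cannot separate genotype from the Y-linked difference. In the fit of all 16 libraries with covariates for list and Y-linked transcripts, C1qa (-0.99), C1ra (-0.79) and Serping1 (-1.19) were called lower (2.11% of genes) and none higher (1.38%).

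The glycerol response did not differ detectably between genotypes for any member. Limma called 0 of 9 in the interaction (C3-/- response minus WT response), 0 had an unadjusted p below 0.05, and the authors' deposited tables hold no such comparison; 0.438% of all tested genes were called (0.222% higher and 0.216% lower). The smallest adjusted p was 0.506, for C1s1, with a difference of 0.63 and a 95% interval of -0.02 to 1.28. For C1qb the difference was -0.20, with an interval of -1.1 to 0.69, and for C1qa 0.11, with an interval of -0.63 to 0.85, so a C1qb response smaller by up to 1.1 in log2 in C3-/- lies inside the interval. Within list 1 the count was also 0, where 4.99% of genes were called higher and 5.45% lower, and with both covariates it was 0 where 4.97% were called higher and 3.79% lower. The comparisons above share their PBS and glycerol libraries and are not independent of each other.

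**Figure D3:**
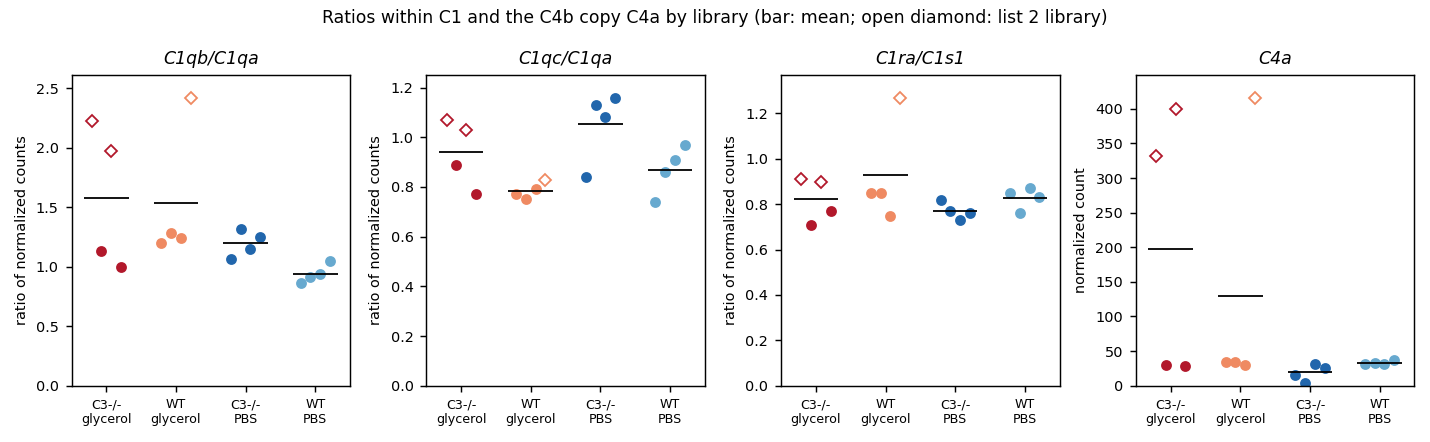
Ratios of normalized counts of C1qb to C1qa, C1qc to C1qa and C1ra to C1s1, and the normalized count of C4a (y axes), in each library by group (x axis); open diamonds are list 2 libraries and bars group means. The list 2 libraries have C1qb to C1qa ratios of 1.97 to 2.42 against 0.86 to 1.32 in list 1, and C4a values of 332.2 to 416.2 against at most 37.0.

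Profiles over the 16 libraries were compared by the root-mean-square difference of their log2 values after each gene's own mean was removed. C1ra and C1s1 were each other's closest gene among all tested genes, at 0.19, and C1ra was the closest gene to Serping1, at 0.25. Among the members C1qa and C1qc came next, at 0.21, while C1qb was 0.43 from C1qa and 0.41 from C1qc. The genes closest to the chains were Ttc37, Tram1 and Gnpnat1 for C1qa (0.17 to 0.19), Sec63, Anp32b and Cmtm3 for C1qb (0.17 to 0.18) and Spcs2, Tceal8 and Alg2 for C1qc (0.15 to 0.19). Acadl and Ltbp4 followed C1s1 for C1ra (0.21 and 0.23), H2-Aa followed C1ra for C1s1 (0.2), and Ptgis and Col6a1 followed C1ra for Serping1 (0.25 and 0.28). C2 was closest to Ube2u (0.27), Ly6g2 and E130102H24Rik (0.33 each). Masp1 was closest to Cacna2d1 (0.3), Ctsk and Hoxa11 (0.32 each). C4b had no near match, with Abhd11os and Gm3219 at 0.77 and Tmem238 at 0.78. The libraries come from 2 lists and their depth is unknown, and these values carry no test.

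Related genes were read in the same comparisons. Of the near copies, C1rb was not analysed here and 3 were tested. In WT after glycerol 2 of these 3 were called lower (13.3% of all tested genes), and between glycerol genotypes 1 was called higher (6.38%). C1s2 fell after glycerol in WT (-2.24 ± 0.53, limma adjusted p = 0.00664), as did C1rl, a C1r-like protease gene (-1.37 ± 0.41, 0.0225), and C1s2 was higher in C3-/- than in WT glycerol libraries (1.86 ± 0.53, 0.0356). C4a, with log2 differences from -1.05 to 2.66, was called in no comparison. Of 9 lectin and fluid-phase genes 6 were in the matrix and 4 were tested, and 1 call was made over the 5 comparisons. C1qbp, which encodes a mitochondrial protein that binds C1q, rose in WT after glycerol (0.43 ± 0.14, limma adjusted p = 0.0327), where 12.5% of all tested genes were called higher. Masp2, Mbl1 and C4bp were not called in any comparison. A list of protease genes outside complement was set beside Serping1, and 3 of them were tested. After glycerol 1 of the 3 was called lower in WT and 1 in C3-/- libraries (13.3% and 1.96% of all tested genes). Between glycerol genotypes 1 was called higher (6.38%), as was 1 in the interaction (0.222%). Klkb1, the plasma prekallikrein gene, fell in WT after glycerol (-2.10 ± 0.22, limma adjusted p = 1.7e-05). It had 36.61 ± 8.323 in WT glycerol and 157.2 ± 4.102 in WT PBS libraries. In C3-/- glycerol libraries Klkb1 had 159.8 ± 39.66, and it was the 1 gene of this list called in the interaction (2.07 ± 0.31, adjusted p = 0.0109). Plau, the urokinase gene, fell after glycerol in C3-/- libraries (-1.32 ± 0.32, adjusted p = 0.0251), and Plat was called in no comparison.

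Of 15 interferon-responsive genes, 7 rose in WT after glycerol (12.5% of all tested genes called higher), with a median of 0.72, and 1 rose in C3-/- libraries (3.68%), with a median of 0.32. Cxcl10, a chemokine gene induced by interferon, had log2 fold changes of 2.29 ± 0.29 in C3-/- and 1.91 ± 0.29 in WT libraries. Within list 1 the counts were 1 higher and 1 lower in C3-/- (median 0.03; 12.5% and 10.8% of genes) and 11 higher in WT (median 0.51; 26.8%). Between glycerol genotypes the median was -0.52, and with limma 0 of the 15 were called, 5 having an unadjusted p below 0.05; the smallest adjusted p was 0.0504, for Irf1. Within list 1 alone 10 of the 15 were called lower, where 14.7% of all tested genes were.

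Markers of several cell types, some of them known to make these proteins, were read in the same libraries. In bulk tissue fewer cells of a type and less RNA per cell cannot be told apart. The 12 macrophage genes summed to 3686 to 6674 in C3-/- glycerol, 5257 to 7143 in WT glycerol, 3478 to 4656 in C3-/- PBS and 4097 to 4427 in WT PBS libraries. After glycerol in WT 4 of them rose and 1 fell (12.5% and 13.3% of all tested genes). The lysosomal marker Cd68 rose by 2.87 ± 0.37 in log2 (limma adjusted p = 8.09e-05), and Csf1r, the receptor of a macrophage growth factor, fell by 0.92 (adjusted p = 0.00964). Among list 1 libraries C1qa over Cd68 was 1.01 to 1.84 after glycerol and 3.32 to 6.03 after PBS. In the 3 list 2 libraries, all glycerol, it was 0.63 to 0.96. C1qa thus did not keep a fixed ratio to that marker. Its list 1 ratios to Csf1r and to Adgre1, another gene of the list, went the other way. WT list 1 libraries had 0.57 to 0.85 and 4.03 to 4.97 after glycerol, against 0.21 to 0.23 and 1.64 to 2.07 after PBS. C3-/- list 1 libraries had 0.23 to 0.27 and 3.49 to 4.55, against 0.08 to 0.12 and 2.05 to 3.68, with overlap for Adgre1. In list 2 the ratios were 0.07 to 0.34 and 4.39 to 13.99. In C3-/- kidneys 1 macrophage gene rose after glycerol (3.68% of all tested genes), Cd68 (2.54 ± 0.37). Between glycerol genotypes 3 of the 12 were called lower in C3-/- and 1 higher (4.85% and 6.38% of all tested genes), with a median of -0.69. Within list 1 the counts were 8 lower and 1 higher (14.7% and 15.7%). Cd14 and Fcgr1 averaged 237.3 and 28.63 in C3-/- glycerol against 1120 and 112.8 in WT glycerol libraries. Csf1r went the other way, with 2317 against 974.8. Between PBS genotypes 7 of the 12 had all C3-/- values below all WT values (13.1% of all tested genes), and 1 had them above (13.9%). None of the 12 was at 0 in all libraries of a group.

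The 7 fibroblast genes summed to 2991 to 6400 in C3-/- glycerol and 9023 to 17470 in WT glycerol libraries, and to 3227 to 4536 in C3-/- PBS and 5258 to 9900 in WT PBS libraries, so the genotypes did not overlap in either treatment. Between PBS genotypes 5 of the 7 had no overlap and were lower in C3-/- (13.1% of all tested genes), as C1ra, C1s1 and Serping1 were. In WT glycerol against WT PBS the fibroblast sums were 9023 to 17470 and 5258 to 9900. There 2 of the 7 rose and 2 fell (median 0.65; 12.5% and 13.3% of all tested genes). Means of Col1a1, Col1a2, Col3a1 and Pdgfrb were higher after glycerol (2287, 2463, 5484 and 2258, against 592.9, 1545, 1445 and 1070). Those of Dcn, Pdgfra and Lum were lower (568.5, 676.5 and 39.09, against 1276, 1106 and 73.61). C1ra, C1s1 and Serping1 had log2 values of -0.39, -0.53 and -0.27, none of them called. Between glycerol genotypes 4 of the 7 were called lower (4.85% of all tested genes), as Masp1 was, with Col1a2 at -1.51 ± 0.24 (limma adjusted p = 0.000922). The 6 hepatocyte genes summed to 876.7 to 2942 in C3-/- PBS and 3837 to 5436 in WT PBS libraries, and 2 of 5 tested were called lower (1.19% of all tested genes). The sum was carried by those 2, Ttr (mean 837.2 in C3-/- and 3491 in WT) and Serpina1a (94.7 and 906.7), whereas Alb (637.8 and 354.1), Apoa2 (102.1 and 71.7) and Ahsg (64.0 and 17.4) had higher means in C3-/- PBS libraries and were not called. The 4 tested neutrophil genes included 2 called lower in C3-/- PBS (1.19% of all tested genes), with sums of 28.48 to 49.15 against 137.2 to 212.8 in WT PBS libraries. All 4 were lower there without overlap (13.1%), and 3 of the 4 were called lower between glycerol genotypes (4.85%). The 7 B and plasma cell genes summed to 1550 to 8232 in C3-/- glycerol and 292.6 to 679.1 in WT glycerol libraries, with 3 called higher (6.38% of all tested genes). The 4 endothelial, 6 proximal tubule and 4 loop and distal tubule genes had 0, 1 and 1 that fell after glycerol in C3-/- and 1, 5 and 3 that fell in WT libraries (1.96% and 13.3% of all tested genes). No marker of these lists that the matrix held was at 0 in every library of a group. The part of these cell markers in the complement differences was not tested.

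**Figure D4:**
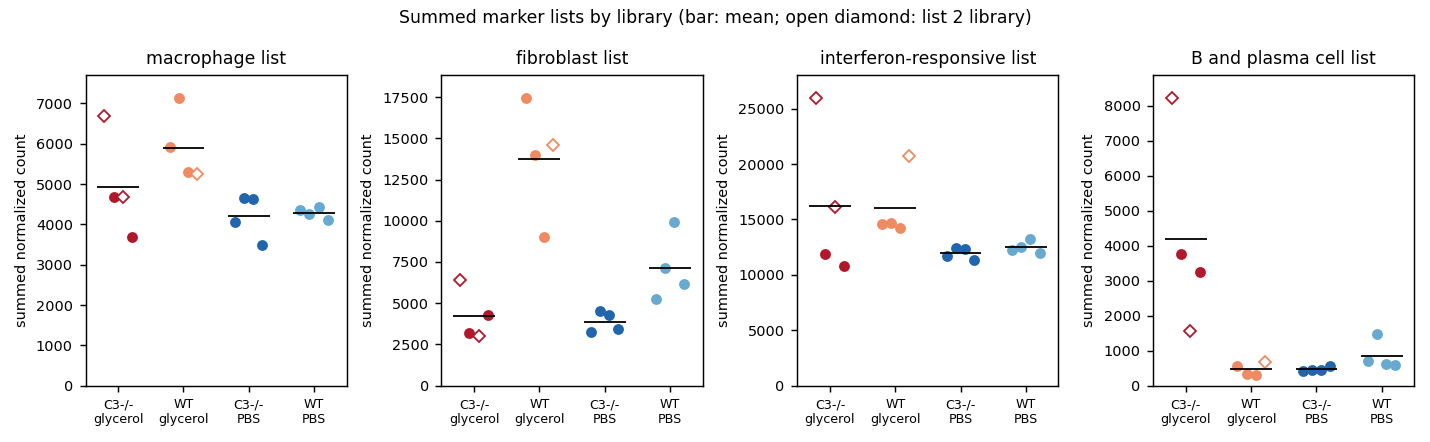
Summed normalized counts (y axis) of the macrophage, fibroblast, interferon-responsive and B and plasma cell lists in each library by group (x axis); open diamonds are list 2 libraries and bars group means. Fibroblast sums are lower in C3-/- than in WT libraries in both treatments (2991 to 6400 against 9023 to 17470 after glycerol), and B and plasma cell sums are highest in C3-/- glycerol libraries (1550 to 8232).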

How the data were processed

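RNA of 16 kidney libraries was sequenced, and the authors deposited a matrix of gene-level signal for 20525 genes, holding counts scaled with DESeq2, per the file headers. The tools named in the submitters' processing notes are STAR (2.7.1), R (3.6.1) and DESeq2, with build GRCm38; per the file headers the gene models were Ensembl release 96. The authors also deposited 3 comparison tables that give, for each gene, a log2 fold change with its SE, a Wald score and raw and adjusted p-values. The sources used here name no read counter and no strand setting.

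Whole reads could not be recovered: at the best step per library 8.12% to 39.9% of low values were whole within 0.01. Depth is therefore unknown, no count model was run, and no interval of counting error is given. Tests used limma 3.58.1 (R 4.3.3, mean-variance trend, two-sided) on log2(normalized count + 1) for genes with at least 10 in at least 4 libraries. A single fit of all 16 libraries had 1 coefficient for each group, taken from the sample titles, and p-values were adjusted by Benjamini-Hochberg over the 18035 tested genes of a comparison, with a threshold of 0.05. Fold changes on this scale understate changes of low genes. The fit was tested on simulated data.

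The 9 members, the near copies and the lectin, protease, interferon and cell marker lists were chosen with earlier results of these data known. Genes named from a list were not always those with the smallest p. For each member the 3 genes with the most similar profile were named, except 1 that is not reported here. Replicate numbers did not pair libraries: over 24 same-numbered pairs the correlations of deviations ran from -0.69 to 0.38, 4 of them above 0.1. Alternatives were a pseudocount of 8, no filter, equal library totals, only the groups compared, list 1 only, covariates for list and Y-linked transcripts, a replicate block and leaving out each library. Promoter windows are from RefSeq, and gene positions from GENCODE M21.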

Additional observations from a re-analysis of the deposited data

Results flagged for a closer look

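In 36 groups of 4 libraries (each member in each group) the gap between the farthest library and its nearest neighbour was set against the range of the group, and 2 exceeded Dixon's critical value for 4 samples. Chance flags about 1 in 20 such groups. C1qb was at 1393.5 in C3-/- glycerol replicate 1, against 396.2 to 554.3 in the other 3 libraries of its group. C4b was at 6768.4 in WT glycerol replicate 4, against 131.2 to 489.9 in the other 3. Both libraries belong to list 2, where C4a and the ratio of C1qb to C1qa were also high, and the part of the list in both values was not tested.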

How the results depend on the processing

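Among the 45 log2 values of 9 members in 5 comparisons, a pseudocount of 8, no filter, equal library totals and the replicate block each kept all 45 calls. The replicate numbers do not pair the libraries. With the replicate block 1, 0, 1, 0 and 0 members were called in glycerol against PBS for WT and then for C3-/-, in C3-/- against WT after glycerol and then after PBS, and in the interaction, as without it, and 3915, 632, 1638, 311 and 41 of all genes, against 4666, 1016, 2025, 402 and 79. In the same order of comparisons, list 1 alone called 7, 2, 4, 4 and 0 members (56.2, 23.3, 30.4, 19.5 and 10.4% of all genes). Covariates for list and Y-linked transcripts called 5, 3, 4, 3 and 0 (49.3, 18.8, 33.6, 3.48 and 8.76%). Fitting only the groups compared called 1, 0, 0 and 6 (25.9, 1.75, 1.64 and 26.3%). Also tried, and chosen after seeing the data: list 1 with a Y-linked covariate called 7, 3, 3, 2 and 0 members (58.7, 24.9, 26.1, 5.39 and 12.9% of all genes). A fit of the PBS libraries with that covariate rests on 1 C3-/- library, so no count is given for it. The cause of these differences was not tested; fewer libraries entered the list 1 and group-wise fits.

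Leaving out each library in turn gave 1 to 2, 0 to 1, 1 to 2, 0 to 0 and 0 to 0 members called, and 3429 to 5338, 491 to 2785, 1361 to 4367, 211 to 614 and 38 to 211 of all genes. In WT, C4b was called without WT glycerol replicate 2 (2.91, limma adjusted p = 0.0285), C1s1 without C3-/- glycerol replicate 1 (-0.53, 0.0341) and C1qa without C3-/- glycerol replicate 3 (0.5, 0.0424). In C3-/- glycerol against PBS, C2 was called without WT glycerol replicate 2 (-0.91, 0.0382), C1qb without WT glycerol replicate 4 (0.93, 0.0434) or C3-/- glycerol replicate 4 (1.14, 0.0342), and C1qa without C3-/- glycerol replicate 3 (0.89, 0.0101). No called member changed sign. Uncalled values changed sign in 5 of 45 cases in list 1, with or without the Y-linked covariate, in 4 with both covariates, where C4b in C3-/- glycerol against PBS was -0.14 in place of 1.64, and in 1 with equal totals. Leaving out 1 library changed the sign of 12 of the 45, all uncalled: C1ra and C1s1 in C3-/- glycerol against PBS, C1qc, C1ra, C1s1, C2 and Serping1 between glycerol genotypes, Masp1 in WT, and C1qa, C1qc, C2 and C4b in the interaction, where C4b ran from -1.26 without WT glycerol replicate 2 to 0.63 without WT glycerol replicate 4.

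Equal totals moved the split of all calls to 2527 higher and 1719 lower in WT (2262 and 2404 with the deposited scaling), 749 and 224 in C3-/- (663 and 353) and 26 and 16 in the interaction (40 and 39), and the median of all genes in the interaction to -0.08 from 0.03. Without a known depth, values such as those of Masp1, at 15.2 to 76.3, have no stated counting error.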
